A study of Mus musculus with 6 samples.

Results

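The mechanistic target of rapamycin complex 1 (mTORC1) pathway and its stress inhibitors were followed here in epididymal white adipose tissue (eWAT) of mice with cancer-associated cachexia (CAC) and of control mice (CONT). The set held 10 of the 55039 genes listed. It was made up of Ddit4, Ddit4l, Sesn1, Sesn3, Deptor, Tsc2, Mtor, Rptor, Rps6kb1 and Eif4ebp1. The genes were found by name in the count and FPKM tables, and all 10 passed the filter on low counts. They were chosen with the comparison of CAC with CONT in view, so their differences between the groups are a description with no test, and nothing is supported by them.

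The animals were male C57BL/6 mice aged 6 to 7 weeks at assignment. The CAC mice carried a subcutaneous tumor of Lewis lung carcinoma (LLC) cells, a mouse lung tumor line, and the CONT mice had received phosphate-buffered saline (PBS) alone. Fat was taken 28 days after injection, and each of the 6 libraries of poly(A) RNA came from 1 mouse, with 3 mice in a group. Both groups were otherwise untreated mice of the same strain, and tumor growth and wasting were not separated by any further group.

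mTORC1 is a protein kinase complex that promotes protein and lipid synthesis when amino acids and insulin are plentiful. Insulin acts through AKT, which inhibits the TSC complex and so lets the small GTPase Rheb switch the kinase on, whereas amino acids act through the Rag GTPases at the lysosome. Stress proteins such as REDD1 and the sestrins restrain the complex, and its activity is read from phosphorylation of S6 kinase and 4E-BP1, which RNA levels do not measure.

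The libraries held 15713794 to 25926425 counted reads, so 1 CPM (reads scaled to the library size) stood for 11.2 to 26.5 reads. CONT replicate 1 stood apart from the other 5 libraries. Mitochondrial transcripts took 30.2% of its counts against 3.89% to 5.04% elsewhere. Erythroid markers summed to 5678 CPM in it against 261 and 392 CPM in the other CONT libraries and 1853 to 2439 CPM in CAC. The 5765 tested genes of at least 5245 bases had a median log2 ratio of -0.44 to the other CONT libraries in it, and the 5768 genes of at most 2732 bases had 0.20. Against the tissue label, 10 of 10 adipocyte markers were detected, with sums of 54507, 22422 and 26424 CPM in CONT replicates 1, 2 and 3 and 35447 to 46981 CPM in CAC. Without CONT replicate 1, both of these marker sums were higher in every CAC library than in CONT. Epididymis markers summed to 6866 CPM in CONT replicate 3 and to 0.0411 to 163 CPM in the other libraries. Testis markers reached 1093 CPM in CONT replicate 2 and 1553 CPM in CAC replicate 3 against at most 16.4 CPM elsewhere. Several results on the 10 genes that turn on one of these libraries are also given without it.

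Of the 17296 genes tested with edgeR's quasi-likelihood test, 0 (0%) passed an adjusted p of 0.05. At an unadjusted p under 0.05, 1092 genes (6.31%) were higher in CAC and 1202 (6.95%) were lower, 2294 in all. DESeq2 passed 965 genes after adjustment, and limma on FPKM passed 5 or 6 genes depending on the pseudocount. The median log2 fold change over all tested genes was -0.06. The 3 libraries of one group were all above those of the other for 2039 genes higher in CAC (11.8%) and 1844 lower (10.7%). The p-values set the difference between the groups against the spread between mice within a group, for these 6 mice only. In bulk tissue, fewer cells of a type and less RNA per cell cannot be told apart.

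The stretches just upstream of the start sites of the genes whose libraries did not overlap, and of Sesn3 as the second sestrin of the set, are printed here because RNA levels are what was measured and these are the stretches next to where transcription starts. Each one is the 250 bases before a RefSeq start site on GRCm38.p6, read 5′ to 3′ on the strand of the gene. Of the 10 genes, 8 matched an entry, and Deptor and Eif4ebp1 did not. The Ddit4 stretch is chr10:59951771-59952020 on the minus strand, and the Ddit4l stretch is chr3:137623422-137623671 on the plus strand. Sesn1 has a pair of start sites, with stretches at chr10:41810324-41810573 and chr10:41887189-41887438 on the plus strand. The Sesn3 stretch is chr9:14276051-14276300 on the plus strand, and the Rps6kb1 stretch is chr11:86544808-86545057 on the minus strand. Capitals mark matches, on either strand, to the letters of 7 motifs named after the sequences.
Ddit4: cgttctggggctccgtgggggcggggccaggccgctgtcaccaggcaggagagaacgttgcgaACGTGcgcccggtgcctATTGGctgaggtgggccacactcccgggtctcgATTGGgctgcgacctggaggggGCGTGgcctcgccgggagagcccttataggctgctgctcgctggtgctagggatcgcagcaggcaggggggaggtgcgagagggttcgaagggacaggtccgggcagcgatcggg
Ddit4l: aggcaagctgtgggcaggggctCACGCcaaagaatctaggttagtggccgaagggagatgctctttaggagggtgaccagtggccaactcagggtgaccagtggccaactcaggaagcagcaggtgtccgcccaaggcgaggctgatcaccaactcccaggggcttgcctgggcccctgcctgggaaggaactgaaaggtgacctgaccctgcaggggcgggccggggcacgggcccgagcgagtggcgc
Sesn1, first start site: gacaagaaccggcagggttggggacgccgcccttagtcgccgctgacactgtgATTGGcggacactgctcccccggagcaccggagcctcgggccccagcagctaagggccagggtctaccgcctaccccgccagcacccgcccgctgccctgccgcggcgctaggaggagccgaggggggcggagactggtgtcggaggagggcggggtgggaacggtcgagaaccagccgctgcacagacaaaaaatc
Sesn1, second start site: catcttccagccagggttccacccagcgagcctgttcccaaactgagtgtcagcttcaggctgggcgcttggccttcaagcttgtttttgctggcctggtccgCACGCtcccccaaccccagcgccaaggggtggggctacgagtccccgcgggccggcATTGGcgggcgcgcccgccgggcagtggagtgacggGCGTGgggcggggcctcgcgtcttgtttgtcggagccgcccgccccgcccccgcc
Sesn3: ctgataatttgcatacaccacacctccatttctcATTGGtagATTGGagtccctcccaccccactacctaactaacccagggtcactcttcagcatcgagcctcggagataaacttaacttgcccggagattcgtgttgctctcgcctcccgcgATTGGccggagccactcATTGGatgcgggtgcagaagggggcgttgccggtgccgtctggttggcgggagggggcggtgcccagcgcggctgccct
Rps6kb1: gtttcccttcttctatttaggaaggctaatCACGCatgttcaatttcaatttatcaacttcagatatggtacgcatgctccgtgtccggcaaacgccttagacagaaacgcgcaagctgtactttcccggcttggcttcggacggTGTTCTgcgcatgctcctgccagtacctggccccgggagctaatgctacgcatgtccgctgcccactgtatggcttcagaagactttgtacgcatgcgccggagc

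The motifs were TATAAA for the promoter box of that name, CCAAT for the box bound by NF-Y, ACGTG and likewise GCGTG for hypoxia elements, AGAACA for part of a glucocorticoid receptor site, GTAAACA for FoxO and TGATGNAA for ATF4, each searched with its reverse complement. ACGTG and GCGTG differ only in the first letter, so they share 4 of their 5 letters but cannot match at the same place on the same strand. Of 32851 mouse stretches of this length, 12.4% held TATAAA, 33.8% CCAAT, 16.6% ACGTG, 28.2% GCGTG, 16.1% AGAACA, 3.17% GTAAACA and 3.45% TGATGNAA.

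The Ddit4 stretch held ACGTG at -187 and GCGTG at -115 from the start site, with CCAAT at -170 and -137. Ddit4l, its closest relative in the set, held GCGTG at -228 and no other match. The first Sesn1 stretch held CCAAT at -197, and the second held GCGTG at -147 and -55 with CCAAT at -91. Sesn3 held 4 CCAAT matches, at -216, -208, -96 and -79, and no hypoxia element letters. Rps6kb1 held the only AGAACA match among the 9 stretches of the 8 genes, at -105, with GCGTG at -220. No stretch of the 8 genes held TATAAA, the FoxO letters or the ATF4 letters, which says only that these letters are not in these windows. The GC share was 70.0% for Ddit4, 65.2% for Ddit4l, 70.0% and 71.2% for Sesn1, 59.6% for Sesn3 and 52.8% for Rps6kb1, against a median of 52.4% over all stretches. The start sites of the count annotation differ from those of RefSeq for Ddit4, Ddit4l, Sesn1 and Sesn3, so these windows lie partly or wholly inside the gene as it was counted.

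The stress inhibitors Ddit4 and Ddit4l stood at opposite ends of the comparison. Ddit4 encodes REDD1, a small protein that restrains mTORC1 through the TSC complex and is induced by hypoxia, glucocorticoids, energy stress and DNA damage. The gene (ENSMUSG00000020108) lies at chr10:59949669-59951834 on the minus strand. Its level was 57.4, 49.2 and 64.7 CPM in CONT replicates 1, 2 and 3 and 344, 507 and 418 CPM in CAC replicates 1, 2 and 3. Every CAC library was far above every CONT library, and CONT replicate 1 did not stand apart. The means were 57.1 ± 7.78 CPM in CONT and 423 ± 81.7 CPM in CAC (SD, n = 3 each). The log2 fold change was 2.89 with a standard error (SE) of 0.25, a level 7.40 times that of CONT. Leaving out 1 library at a time gave log2 fold changes of 2.75 to 3.06. The values rest on 644 to 1432 reads a library in CONT and 8368 to 12557 in CAC.

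Per length, Ddit4 moved from the second to the first place of the 10 genes. In CONT it had 26.6, 22.4 and 29.6 FPKM, and in CAC 161, 234 and 194 FPKM. Among all tested genes its level stood at percentile 90.1 to 92.8 in CONT and percentile 99.0 to 99.4 in CAC. Eif4ebp1 was the gene it passed.

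**Figure D1:**
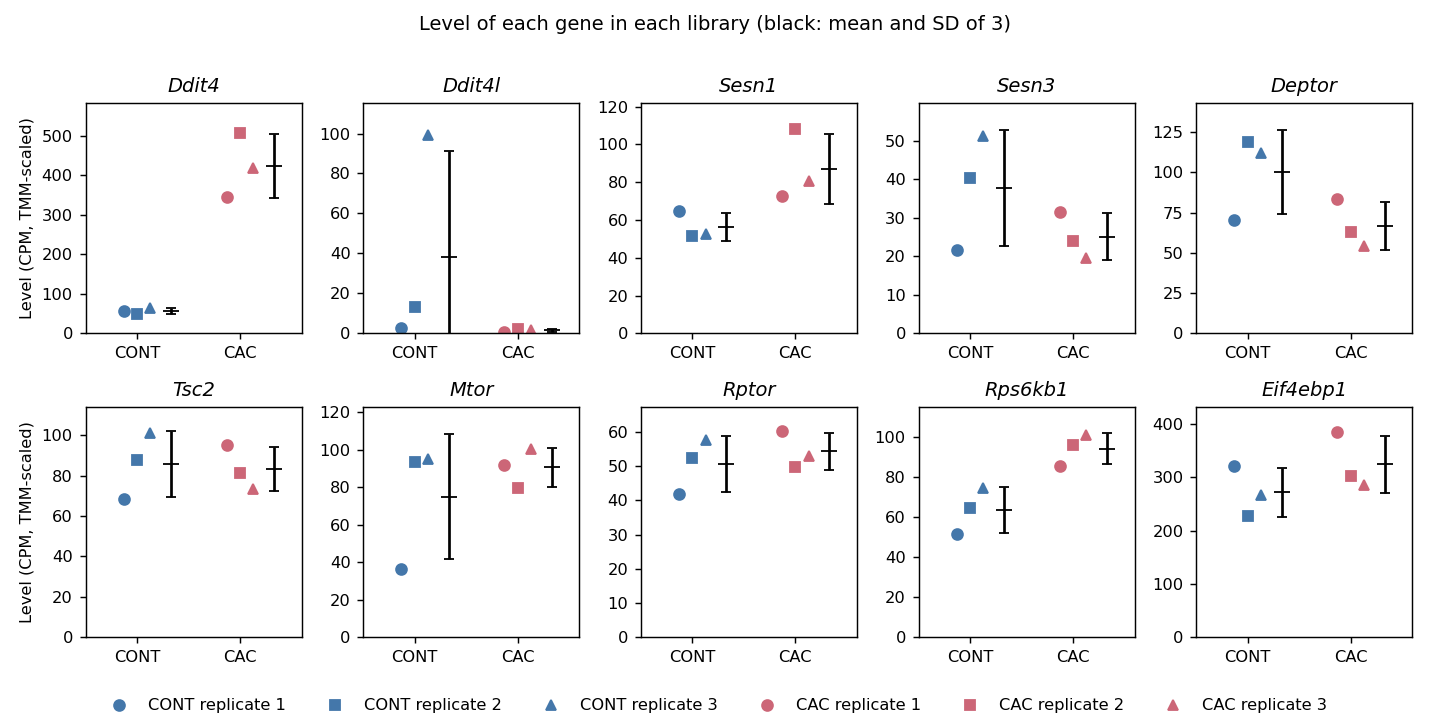
Level of each of the 10 genes (CPM on the TMM-scaled library size, linear axis from 0) in the 3 CONT libraries (blue) and the 3 CAC libraries (red), with the mean and SD of each group in black. The CAC points lie above all CONT points for Ddit4, Sesn1 and Rps6kb1 and below them for Ddit4l, whose CONT bar runs below 0 and is clipped at the axis. CONT replicate 1 (circle) is the lowest CONT point for Ddit4l, Mtor, Sesn3, Deptor, Tsc2, Rptor and Rps6kb1.

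Ddit4l encodes REDD2, the REDD1 relative known mainly from muscle. The gene (ENSMUSG00000046818) lies at chr3:137621612-137628333 on the plus strand. Its level in CONT was 2.50, 13.4 and 99.2 CPM, against 0.616, 2.14 and 1.70 CPM in CAC. The groups did not overlap, but CONT replicate 1 at 2.50 CPM lay next to CAC replicate 2 at 2.14 CPM, and the CONT libraries differed among themselves far more than the groups' nearest values. The means were 38.4 ± 52.9 CPM in CONT and 1.48 ± 0.784 CPM in CAC (SD, n = 3 each), with 28, 306 and 2194 reads in CONT and 15, 53 and 45 in CAC. The log2 fold change was -4.69 (SE 1.36), and it was -2.41 without CONT replicate 3, the library with 6866 CPM of epididymis markers. It was -5.24 without CONT replicate 1 and -2.11 on the log2(FPKM + 1) scale. The part of epididymal tissue in the Ddit4l level of CONT replicate 3 was not tested, and between CONT replicates 1 and 2 the order of the marker sum (163 and 0.307 CPM) was the reverse of the order of Ddit4l. The ratio of Ddit4 to Ddit4l in FPKM, chosen after the values were seen, ran from 1.08 to 38.2 in CONT and from 394 to 927 in CAC.

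The sestrins of the set, Sesn1 and Sesn3, differed from each other in direction. Sestrins are stress-induced proteins that keep the GATOR2 complex from activating mTORC1 when leucine is short, and Sesn1 is a classic p53 target while Sesn3 is a classic FoxO target. Sesn1 (ENSMUSG00000038332, chr10:41809935-41908424, plus strand) had 64.9, 51.4 and 52.8 CPM in CONT and 72.5, 108 and 80.5 CPM in CAC. The CAC libraries were all higher, and the gap between CAC replicate 1 and CONT replicate 1 was small. The means were 56.4 ± 7.43 and 87.0 ± 18.6 CPM, and the log2 fold change was 0.63 (SE 0.22), which is 1.54 times the CONT level. Leaving out 1 library gave 0.45 without CAC replicate 2, the highest, to 0.78 without CAC replicate 1.

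Sesn3 (ENSMUSG00000032009, chr9:14275067-14333101, plus strand) had 21.6, 40.3 and 51.3 CPM in CONT and 31.7, 24.0 and 19.6 CPM in CAC. The groups overlapped because CONT replicate 1 lay inside the CAC range. The means were 37.7 ± 15.0 and 25.1 ± 6.09 CPM, with a log2 fold change of -0.59 (SE 0.35). It was -0.86 without CONT replicate 1 and -0.29 without CONT replicate 3. Its gene length of 15269 bases, the longest of the set, put it among the long genes that were low in CONT replicate 1. The ratio of Sesn1 to Sesn3 in FPKM ran from 3.94 to 11.5 in CONT and from 8.78 to 17.2 in CAC and overlapped. The overlap came from CONT replicate 1, at 11.5, while CONT replicates 2 and 3 had 4.89 and 3.94. The mean ratio in CAC was 2.05 times that of CONT. It was 3.15 times without CONT replicate 1 and 1.69 times without CONT replicate 3.

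Sesn2, the sestrin induced by ATF4, was not in the set but was in the list of amino acid sensors. It had 16.7, 30.4 and 26.5 CPM in CONT and 48.9, 99.6 and 65.4 CPM in CAC. The CAC libraries were all higher, with a log2 fold change of 1.54 (SE 0.35) and an adjusted p of 0.228. It was the sestrin with the largest log2 difference of the 3 in these libraries. Per length, the ratio of Sesn2 to Sesn1 in CONT was 0.294, 0.678 and 0.575, against 0.773, 1.06 and 0.931 in CAC, and the ranges did not overlap. This ratio was chosen after the values were seen and was not tested.

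Deptor and Tsc2 are further brakes of the pathway. Deptor binds mTOR itself in both of its complexes and inhibits the kinase, and in fat it has been linked to adipocyte formation. The gene (ENSMUSG00000022419, chr15:55112317-55259271, plus strand) had 70.6, 119 and 112 CPM in CONT and 83.5, 62.7 and 54.5 CPM in CAC. CONT replicates 2 and 3 lay above all CAC libraries and CONT replicate 1 lay among them. The means were 100.4 ± 26.03 and 66.9 ± 14.9 CPM, and the log2 fold change was -0.59 (SE 0.27). It was -0.45 without CONT replicate 2 and likewise -0.45 without CAC replicate 3. Without CONT replicate 1 it was -0.77 and the groups no longer overlapped. Summed macrophage markers had the same order of libraries in CONT, at 703, 1968 and 1934 CPM, and were 1356, 788 and 1030 CPM in CAC. Their part in the level of Deptor and of Sesn3 was not tested, and 8 of 8 macrophage markers were detected with overlapping groups for each.

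Ratios to other genes of the complex within the same library showed less overlap for Deptor. Deptor over Mtor in FPKM was 2.21, 1.45 and 1.35 in CONT and 1.04, 0.895 and 0.618 in CAC. Deptor over Rptor was 2.57, 3.44 and 2.94 in CONT and 2.10, 1.91 and 1.57 in CAC. In both ratios every CAC library was below every CONT library, and the mean ratios in CAC were 0.510 and 0.623 times those of CONT. Without CONT replicate 1, the value for Deptor over Mtor was 0.608. Both ratios were chosen after the values were seen, and a ratio shows unequal change and not which gene changed.

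**Figure D2:**
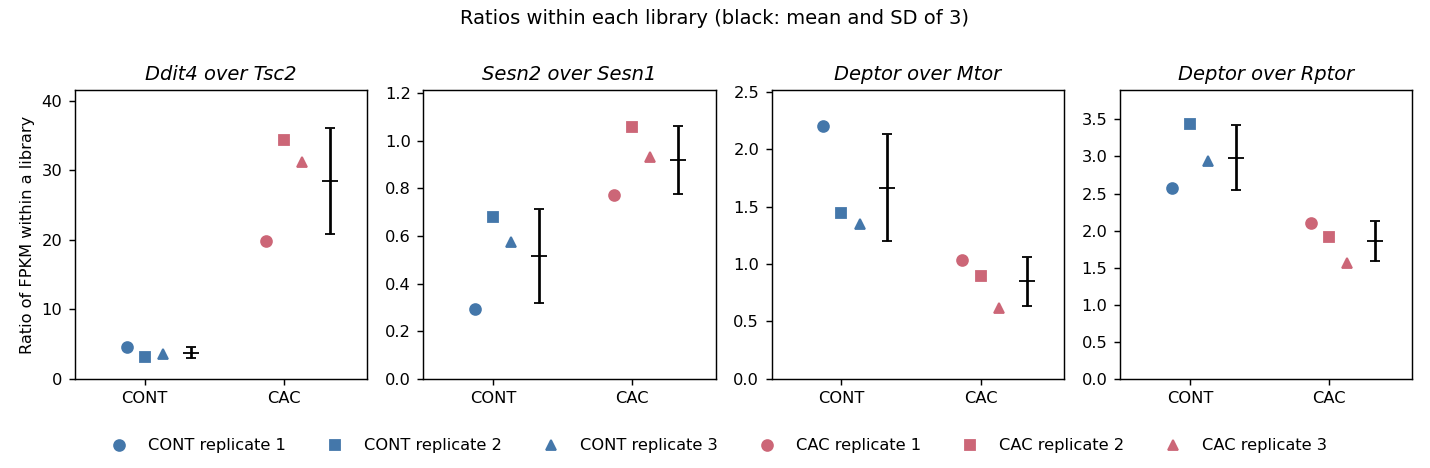
Ratios of FPKM within each library for 4 gene pairs (linear axes from 0), with CONT in blue, CAC in red and the mean and SD of 3 libraries in black. Ddit4 over Tsc2 and Sesn2 over Sesn1 are higher in every CAC library, and Deptor over Mtor and Deptor over Rptor are lower in every CAC library.

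Tsc2 encodes tuberin, the GTPase-activating subunit that turns Rheb off and through which REDD1 acts. The gene (ENSMUSG00000002496, chr17:24595816-24632630, minus strand) had 68.7, 87.7 and 101 CPM in CONT and 95.0, 81.1 and 73.4 CPM in CAC. The ranges lay across each other, and the log2 fold change was -0.05 (SE 0.21). Its sign turned to 0.03 without the filter, 0.10 without CONT replicate 3 and 0.05 without CAC replicate 3. The ratio of Ddit4 to Tsc2 in FPKM was 3.07 to 4.58 in CONT and 19.8 to 34.3 in CAC. Tsc2 overlaps the oppositely oriented Pkd1, which held 26383 reads against 11272 of Tsc2 over the 6 libraries. How the counting treated strand is not given in the sources used here, so reads of the shared end cannot be assigned with certainty.

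The kinase Mtor and its partner Rptor (raptor, which brings substrates to the kinase) differed little between the groups. Mtor (ENSMUSG00000028991, chr4:148448611-148557683, plus strand) had 36.5, 93.3 and 94.8 CPM in CONT and 91.9, 79.8 and 100.4 CPM in CAC. All libraries but CONT replicate 1 lay between 79.8 and 100.4 CPM, and that library held 38.8% of the mean of the other CONT libraries. The log2 fold change was 0.28 (SE 0.37) and turned to -0.04 without CONT replicate 1, with 0.50 without CONT replicate 3 at the other end. The coefficient of variation of Mtor was 44.4% in CONT and 11.4% in CAC. Rptor (ENSMUSG00000025583, chr11:119602905-119899576, plus strand) had 41.7, 52.3 and 57.8 CPM in CONT and 60.3, 49.8 and 52.8 CPM in CAC. The groups overlapped with a log2 fold change of 0.10 (SE 0.19), which turned to -0.01 without CONT replicate 1 and to -0.08 with an offset for gene length and was 0.22 without CONT replicate 3. Rptor over Mtor overlapped as well, at 0.421 to 0.859 in CONT and 0.395 to 0.492 in CAC.

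Of the pair of classic substrates, Rps6kb1 was higher in every CAC library and Eif4ebp1 overlapped. Rps6kb1 encodes S6 kinase 1, which drives ribosomal protein S6 phosphorylation and translation. The gene (ENSMUSG00000020516, chr11:86498871-86544805, minus strand) had 51.5, 64.6 and 74.4 CPM in CONT and 85.6, 96.2 and 100.9 CPM in CAC. The means were 63.5 ± 11.5 and 94.2 ± 7.84 CPM, and the log2 fold change was 0.57 (SE 0.20), 1.48 times the CONT level. It was 0.45 without CONT replicate 1, 0.71 without CONT replicate 3 and 0.47 with the length offset, and the groups still did not overlap. Rps6kb1 overlaps the oppositely oriented Rnft1, which held 5740 reads against its 10842. Against Mtor within the library, Rps6kb1 overlapped between the groups, at 0.809 to 1.65 in CONT and 1.09 to 1.41 in CAC. The overlap came from CONT replicate 1, at 1.65, while CONT replicates 2 and 3 had 0.809 and 0.917. The mean ratio in CAC was 1.09 times that of CONT. It was 1.42 times without CONT replicate 1 and 0.953 times without CONT replicate 2.

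Eif4ebp1 encodes 4E-BP1, which blocks the cap-binding protein eIF4E until mTORC1 phosphorylates it. The gene (ENSMUSG00000031490, chr8:27260329-27276674, plus strand) had 320, 228 and 266 CPM in CONT and 385, 303 and 285 CPM in CAC. CONT replicate 1 was the highest CONT library and lay above CAC replicates 2 and 3. The means were 271 ± 46.6 and 324 ± 52.99 CPM, with a log2 fold change of 0.26 (SE 0.24). It was 0.15 without CONT replicate 2 and 0.16 without CAC replicate 1. Without CONT replicate 1 it was 0.41 and the groups no longer overlapped. The libraries had the same order for the summed adipocyte markers within CONT, and CAC replicate 1 was the highest CAC library for both. The part of adipocyte RNA in the level of Eif4ebp1 was not tested. With 2196 bases it is among the shorter genes, of which CONT replicate 1 held more. The ratio of Eif4ebp1 to Eif4e in FPKM was 10.9 to 15.0 in CONT and 10.6 to 21.0 in CAC, so the groups overlapped. The overlap came from CAC replicate 3, at 10.6, while CAC replicates 1 and 2 had 21.0 and 19.7. The mean ratio in CAC was 1.26 times that of CONT. It was 1.505 times without CAC replicate 3 and 1.12 times without CAC replicate 1.

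In all, 6 genes of the set had a higher mean log2 level in CAC and 4 a lower one. The groups did not overlap for 4 of the 10, with Ddit4, Sesn1 and Rps6kb1 higher and Ddit4l lower, beside 11.8% and 10.7% of all tested genes. Because the set was chosen by this contrast, nothing is read from that count. Without CONT replicate 1 the count was 7, with 4 higher (Eif4ebp1 added) and 3 lower (Deptor and Sesn3 added). In that fit 3520 of all 19459 tested genes were higher without overlap and 3817 were lower. With the offset for gene length the count of the set was also 7, and the same genes were added. That fit had 2072 higher and 1751 lower of 17296 genes. Ddit4, Ddit4l, Sesn1, Sesn3, Rps6kb1, Deptor and Eif4ebp1 kept their sign in all 15 alternative fits, and Tsc2, Mtor and Rptor did not.

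**Figure D3:**
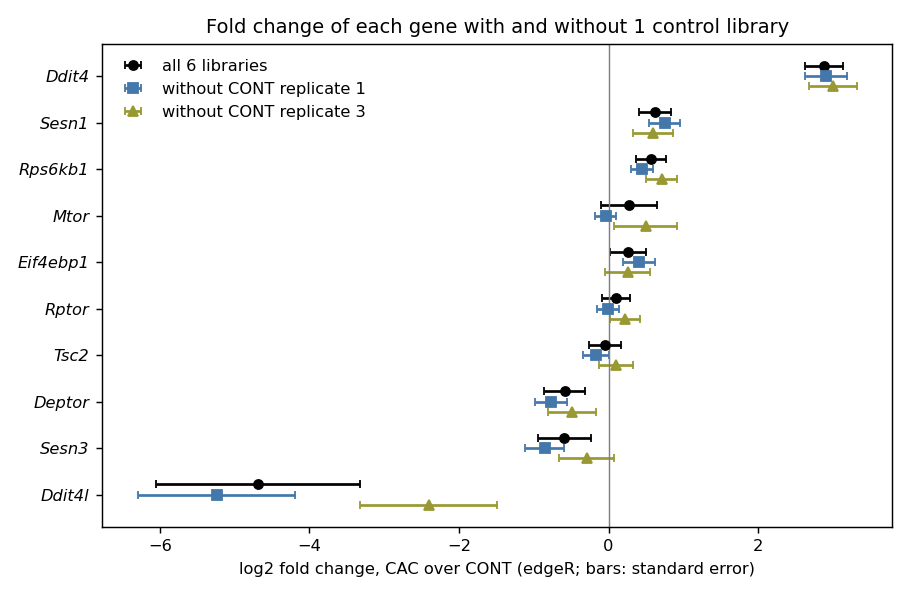
Log2 fold change of each gene, CAC over CONT, from edgeR with all 6 libraries (black), without CONT replicate 1 (blue) and without CONT replicate 3 (olive), with bars of 1 standard error. Ddit4 stays near 2.89 in all 3 fits, Ddit4l moves from -4.69 to -2.41 without CONT replicate 3, and Mtor and Rptor cross 0 without CONT replicate 1.

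The genes were also ordered by their level per length. In CONT, Eif4ebp1 (median 97.3 FPKM) stood above Ddit4 (26.6 FPKM) and Ddit4 above Sesn1 (10.6 FPKM), with no overlap of libraries between these neighbours. From Sesn1 down through Deptor, Mtor, Tsc2, Rps6kb1, Ddit4l, Rptor and Sesn3 (2.11 FPKM), each gene overlapped the next. Of the 9 pairs of neighbours, 2 were thus separate, and 5 were when CONT replicate 1 was left out. In that library Mtor had 2.93 FPKM, against 7.37 and 7.53 FPKM in the other CONT libraries. In CAC, Ddit4 (194 FPKM) stood above Eif4ebp1 (112 FPKM), followed by Sesn1 (16.5 FPKM) and Rps6kb1 (9.01 FPKM) without overlap. Mtor, Tsc2 and Deptor (7.49, 6.84 and 5.74 FPKM) overlapped their neighbours, and Rptor (3.19 FPKM), Sesn3 (1.28 FPKM) and Ddit4l (0.475 FPKM) were separate below them, so 7 of 9 pairs of neighbours did not overlap. Ddit4l was thus the lowest gene of the set in every CAC library and in CONT replicate 1, but at position 3 in CONT replicate 3, at 27.3 FPKM.

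**Figure D4:**
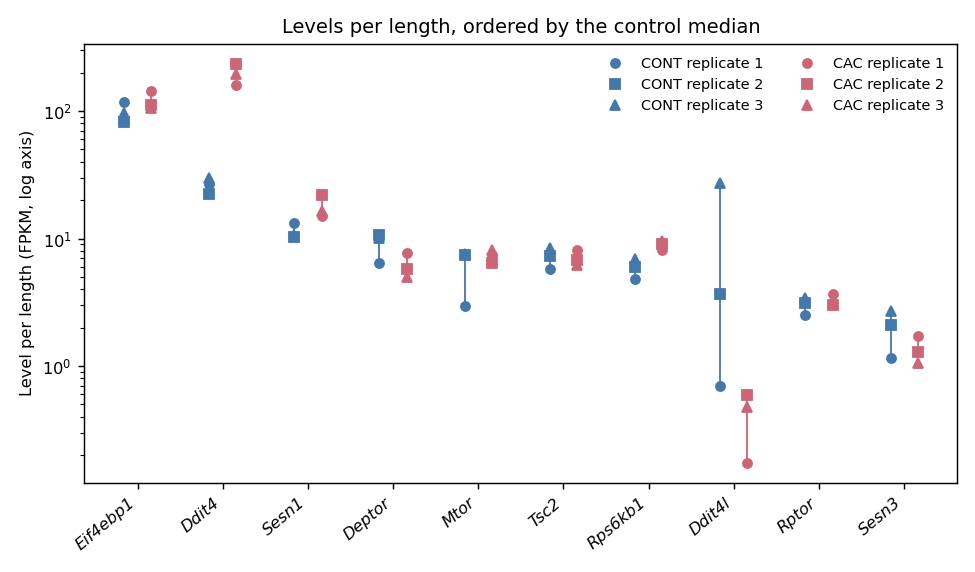
Level per length of each gene in each library (FPKM, log axis), with CONT in blue, CAC in red and a line joining the libraries of a group, ordered by the CONT median. Ddit4 passes Eif4ebp1 in CAC, and the CONT libraries of Ddit4l span 0.695 to 27.3 FPKM.

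For Ddit4, Ddit4l, Sesn1, Sesn3, Eif4ebp1 and Deptor, the genes with the most similar pattern over the 6 libraries were taken by Pearson's r of log2 CPM among 17295 other genes, as a description over 6 libraries that share their depth and their group. Nearest to Ddit4 were Klf15 (0.999), a transcription factor of fasting metabolism, Gm43091 (0.997) and Ppm1k (0.995), the phosphatase that activates branched-chain ketoacid breakdown. Nearest to Ddit4l were Cited4 (0.990), Slc7a4 (0.985) and Jpt2 (0.985), and Cited4 was likewise highest in CONT replicate 3, at 38.1 CPM. Nearest to Sesn1 were Slc25a25 (0.998), Gtdc1 (0.995) and Actr8 (0.990). Nearest to Sesn3 were Vsir (0.994), Elmo2 (0.989) and Arap2 (0.988). Nearest to Eif4ebp1 were the lipid droplet protein gene Cidec (0.996), Gm42929 (0.989) and Pkp4 (0.987). Nearest to Deptor were Unc93b1 (0.996), Cercam (0.994) and the collagen gene Col6a1 (0.992).

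The rest of the pathway was described from a list by function. That list was chosen with earlier results of these data known, so its counts and p-values are a description. It held 92 further genes, all of which were tested. Their median log2 fold change was 0.15 beside -0.06 for all genes, with 57 higher and 35 lower. With 1 library left out it was 0.09 (without CONT replicate 2) to 0.22 (without CONT replicate 3), and that of all genes was -0.09 (without CAC replicate 3) to 0.02 (without CAC replicate 1). At an unadjusted p under 0.05, 15 were higher and 1 lower, which is 16 of 92 beside 6.31% and 6.95% of all genes, and 0 passed after adjustment by edgeR or by limma on FPKM (DESeq2 passed 7). Without CAC replicate 2 the count at the unadjusted p was 7 and without CAC replicate 3 it was 10, and without CONT replicate 1 it was 20. The groups did not overlap for 20 genes higher and 14 lower of the 92, beside 11.8% and 10.7% of all genes. These counts were 20 and 9 with the mitochondrial genes left out and 25 and 6 with no filter. Without CONT replicate 1 they were 31 and 19, beside 3520 and 3817 of 19459 genes. Without CAC replicate 1 they were 33 and 13, beside 3389 and 3022 of 19194 genes.

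The subunits and regulators closest to the kinase held no gene at an unadjusted p under 0.05 with all libraries. Without CONT replicate 1 the TSC and Rheb list held 1, higher, and the mTORC2 list 1, lower, and with the gene length offset the mTORC2 list held 1, higher. In the mTORC1 core and assembly list 0 of 5 genes had an unadjusted p under 0.05, with Akt1s1 (PRAS40, another inhibitory subunit) at a log2 fold change of 0.35 (SE 0.20) and the assembly factor Telo2 at -0.44 (SE 0.21). In the TSC and Rheb list it was 0 of 4, with Tsc1 at 0.47 (SE 0.31), and 0.20 without CAC replicate 2 to 0.69 without CAC replicate 1, and Tbc1d7 at -0.52 (SE 0.28). In the mTORC2 list it was 0 of 4, with Rictor at 0.62 (SE 0.33), and 0.34 without CONT replicate 1, and Mapkap1 at -0.31 (SE 0.17). For the partners of Tsc2 the CPM values of Tbc1d7 were 9.10, 9.33 and 8.86 in CONT and 7.43, 6.34 and 5.29 in CAC, which did not overlap, while Tsc1 overlapped.

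Among the amino acid branch, Rag GTPases, Ragulator and folliculin had 2 of 13 genes at an unadjusted p under 0.05. These were Flcn (folliculin), at 0.80 (SE 0.24), and its partner Fnip1, at 0.88 (SE 0.33), with adjusted p of 0.283 and 0.342. Leaving out 1 library gave 1 (without CAC replicate 2 or CAC replicate 3) to 4 genes (without CONT replicate 3, 2 of them lower), and Fnip1 had 0.66 without CONT replicate 1. Of the GATOR and sensor list 2 of 15 did so (1 to 3 with 1 library left out), Sesn2 and the GATOR2 subunit Mios at 0.46 (SE 0.17, adjusted p 0.336), while the median was -0.13. For AMPK and LKB1 it was 1 of 11, Strada at -0.59 (SE 0.22, adjusted p 0.338), with its relative Stradb at -0.49 (SE 0.23), and -0.33 without CONT replicate 3. The count was 0 without CONT replicate 2, CONT replicate 3 or CAC replicate 2, with no filter and with the replicate block, and 2 without CONT replicate 1.

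The lists from the insulin receptor to AKT and of other mTORC1 substrates held 8 of the 16 genes with an unadjusted p under 0.05. From the insulin receptor to AKT it was 3 of 13, all higher, with Insr at 148 ± 62.6 and 354 ± 55.7 CPM and a log2 fold change of 1.25 (SE 0.38, adjusted p 0.284). Irs2, the adaptor that FoxO induces in fasting, had 14.3, 52.1 and 71.0 CPM in CONT and 114, 251 and 152 CPM in CAC (1.91, SE 0.60, adjusted p 0.291). The third was Irs1, another insulin receptor adaptor, at 1.63 (SE 0.57). All 3 were lowest in CONT replicate 1, and without it Insr had 0.95, Irs2 1.498 and Irs1 1.22 and the list had 4 such genes and a median of 0.24. It had 1 such gene without CAC replicate 2 and 2 without CAC replicate 3. Among other mTORC1 substrates it was 5 of 10, with a list median of 0.57, and 3 of 10 without CONT replicate 1, with a median of 0.53. Lpin1, a phosphatidate phosphatase and transcriptional coregulator, had 208, 315 and 371 CPM in CONT and 1351, 1082 and 1214 CPM in CAC, with a log2 fold change of 2.03 (SE 0.31, adjusted p 0.179). Grb10, an adaptor that mTORC1 stabilizes to dampen insulin signaling, had 67.9, 59.1 and 69.2 CPM against 132, 118 and 104 CPM (0.85, SE 0.18, adjusted p 0.226). The others were the autophagy kinase Ulk1 at 0.78 (SE 0.23), Mitf at 1.28 (SE 0.38) and Zfyve26 at 0.95 (SE 0.39).

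The relatives of Eif4ebp1 and the targets of S6 kinase made up the last lists. In the 4E-BP list 2 of 11 had an unadjusted p under 0.05, and both were relatives of Eif4ebp1. The count was 1 without CONT replicate 2, CAC replicate 1 or CAC replicate 3 and 0 without CAC replicate 2. Eif4ebp2 had a log2 fold change of 0.53 (SE 0.22, adjusted p 0.370), and Eif4ebp3, at 0.624 ± 0.325 and 2.07 ± 0.166 CPM, had 1.69 (SE 0.53, adjusted p 0.291). Their target Eif4e had 59.9, 57.2 and 48.5 CPM in CONT and 50.2, 42.0 and 74.0 CPM in CAC and overlapped. In the S6 kinase list 1 of 6 did so, Eif4b at 0.74 (SE 0.30, adjusted p 0.370). That count was 0 without CONT replicate 2, CONT replicate 3, CAC replicate 2 or CAC replicate 3, with upper quartile scaling, with the replicate block and in limma, and 2 without CONT replicate 1. The translation inhibitor Pdcd4 had -0.40 (SE 0.27), with -0.18 without CONT replicate 3 and -0.59 without CONT replicate 1.

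**Figure D5:**
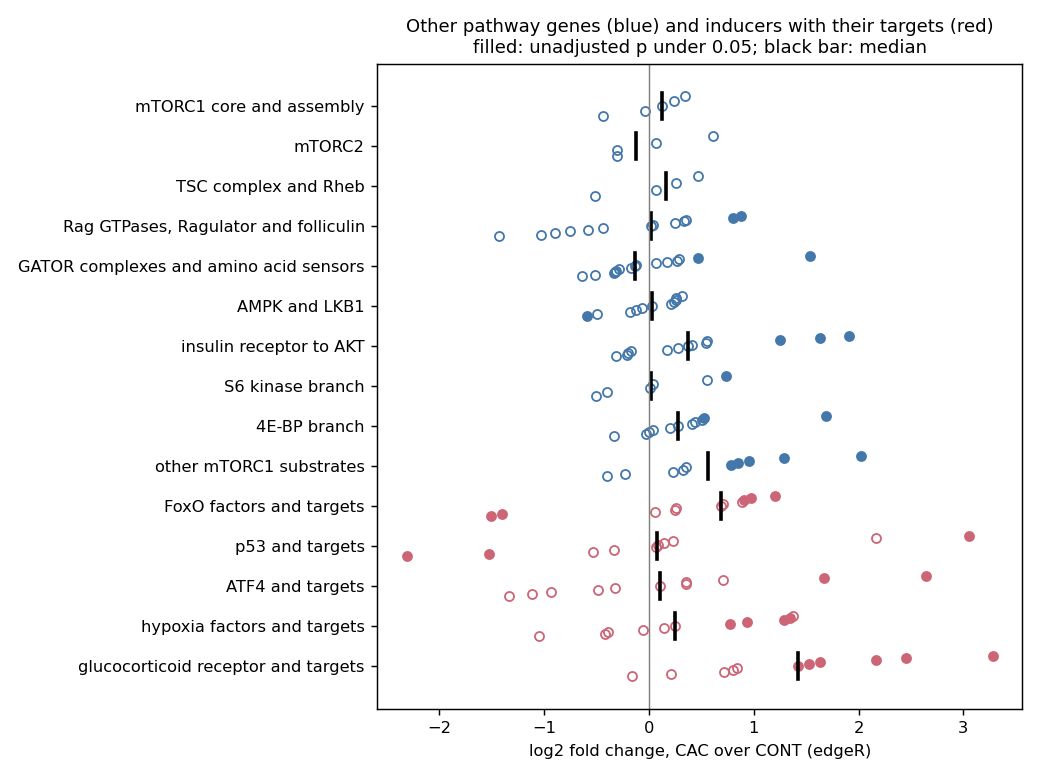
Log2 fold change, CAC over CONT, of each gene of the pathway lists (blue) and of the lists of inducers with their targets (red), filled where the unadjusted p of edgeR was under 0.05, with a black bar at the median of each list. The medians run from -0.13 for the GATOR and sensor list to 1.43 for the glucocorticoid receptor list, and no gene passed after adjustment.

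Factors known to induce Ddit4, the sestrins or Eif4ebp1 were described with other targets of theirs. These lists were also chosen with earlier results of these data known, so their counts and p-values are a description. Of their 55 genes, 54 were tested. Their median log2 fold change was 0.31, with 38 higher and 16 lower. At an unadjusted p under 0.05, 16 were higher and 4 lower of the 54, beside 6.31% and 6.95% of all genes, and 0 passed after adjustment by edgeR (DESeq2 passed 17 and limma on FPKM 1). The count was 18 to 25 when 1 library was left out.

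The glucocorticoid receptor list, whose factor induces Ddit4, had 1.43 as its median and 6 of 11 genes higher at an unadjusted p under 0.05 and 0 lower. Fkbp5, the receptor's co-chaperone and a standard target, had 120, 88.9 and 136 CPM in CONT and 663, 606 and 622 CPM in CAC (2.45, SE 0.25, adjusted p 0.127). The other 5 were Zbtb16, Errfi1, Per1, Sgk1 and Klf9. Zbtb16 and Errfi1 had log2 fold changes of 2.17 (SE 0.43) and 3.28 (SE 0.65), both with an adjusted p of 0.223. Errfi1 had 158, 537 and 973 CPM in the CAC libraries, and 2.61 without CAC replicate 3. The receptor gene Nr3c1 itself was at -0.16 (SE 0.28), and 0.05 without CAC replicate 3. Nr3c1, Eif4e, Irs1, Ulk1, Mitf, Zfyve26, Per1, Sgk1, Klf9, Foxo3, Bcl6, Gadd45a and Vegfa stand outside the rule for named genes and were named after their values were seen.

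The FoxO list, whose factors induce Sesn3, had a median of 0.69 with 3 genes higher and 2 lower of 11 at an unadjusted p under 0.05. Foxo1 had a log2 fold change of 0.90 (SE 0.24, adjusted p 0.266) and Klf15, which glucocorticoids also induce, had 1.21 (SE 0.18, adjusted p 0.177), while Sesn3 stood at -0.59. The third was Foxo3 at 0.97 (SE 0.27). The lower genes were Bcl6 at -1.51 (SE 0.58) and Gadd45a at -1.40 (SE 0.56), both highest in CONT replicate 1, and without that library they had -0.52 and -0.58 and 0 genes of the list were lower at this p. The count of higher genes was 6 without the mitochondrial genes, with no filter, with the replicate block and under DESeq2, and the median was 0.38 without CAC replicate 2. The p53 list, whose factor induces Sesn1, had a median of 0.07 with 1 gene higher and 2 lower of 10 at the same p. Without CAC replicate 3 that median was 0.01 and without CONT replicate 3 it was 0.12. Trp53inp1 had 3.05 (SE 0.55, adjusted p 0.215), and the lower genes were the death gene Bbc3 (PUMA) at -2.31 (SE 0.45, adjusted p 0.221, and -1.68 without CONT replicate 1) and Phlda3 at -1.52 (SE 0.40, adjusted p 0.265).

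The ATF4 list, whose factor induces Sesn2, Ddit4 and Eif4ebp1, had 0.11 as its median and 2 of 11 genes higher at an unadjusted p under 0.05. Asns, which makes asparagine, had 57.3, 46.2 and 60.3 CPM in CONT and 155, 179 and 189 CPM in CAC (1.67, SE 0.20, adjusted p 0.127), and the glutathione-degrading Chac1 had 2.64 (SE 0.45, adjusted p 0.215). Without CAC replicate 3 the median of this list was -0.08, and without CONT replicate 1 it was 0.40 with 5 genes higher. The hypoxia list had 0.25 as its median (0.44 without CAC replicate 3, and 0.48 and 0.51 in limma on FPKM) and 4 of 11 genes higher at this p. These were the mitophagy receptor Bnip3 at 1.35 (SE 0.25, adjusted p 0.215), the glucose transporter Slc2a1 at 0.93 (SE 0.19, adjusted p 0.224), the dimer partner Arnt at 0.78 (SE 0.19, adjusted p 0.249) and the vessel growth factor Vegfa at 1.29 (SE 0.43).

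Markers of other cells gave the setting of these values. Neutrophil markers summed to 4.99, 28.6 and 48.7 CPM in CONT and 117, 207 and 988 CPM in CAC. B and plasma cell markers summed to 34.4, 91.5 and 52.98 CPM in CONT and 16.7, 19.0 and 7.82 CPM in CAC. Endothelial markers overlapped, at 1030 to 1815 CPM in CONT and 1360 to 1537 CPM in CAC, as did the sums of fibroblast and matrix markers, at 1781 to 2280 and 1330 to 1873 CPM, although 3 of the 6 markers were lower in every CAC library and 1 was higher. T cell markers summed to 9.90, 13.1 and 7.64 CPM in CONT and to less in every CAC library, at 7.10, 6.74 and 5.63 CPM. Of the 6 T cell markers taken singly, 1 was lower in every CAC library and 1 was higher. Mesothelial markers summed to 111 to 194 CPM in CONT and 62.8 to 201 CPM in CAC and overlapped. Skeletal muscle markers, of interest because Ddit4l is known from muscle, summed to 46.5, 8.32 and 9.94 CPM in CONT and 48.1, 11.8 and 10.9 CPM in CAC, and Ddit4l did not follow that order. The part of any of these cells in the levels of the 10 genes was not tested.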

How the data were processed

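Poly(A) RNA of eWAT was sequenced from 3 CAC and 3 CONT mice, 1 library each, and groups were taken from the deposited labels. The authors cleaned the reads, aligned them with HISAT2 2.0.5 to the Ensembl release-94 mouse genome (GRCm38) and counted them per gene with featureCounts 1.5.0-p3, per their processing notes. The deposited counts were whole numbers with no normalization, and the FPKM values deposited by the authors divided them by gene length and a library total. Strand handling is not given in the sources used here. Coordinates are those of the count table, and promoter stretches are from RefSeq.

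Counts were tested in R 4.3.3 with edgeR 4.0.16 (quasi-likelihood, TMM, filterByExpr by group, Benjamini-Hochberg over 17296 genes, threshold 0.05). The common dispersion was 0.265. Log2 CPM for pattern likeness used a prior count of 2. Alternatives used DESeq2 1.42.0 and limma 3.58.1 on log2(FPKM + 1) and log2(FPKM + 0.1) (genes at 0.5 FPKM or more in 3 or more libraries), other scalings, no filter, a replicate block, each library left out and, added after the data were seen, an offset for gene length and the order of levels with each library left out. Of these tests only that of edgeR was tried on simulated data, and no value from that trial is given here.

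The members and lists were chosen with earlier results of these data known. Named genes were the members, the 2 genes of each list with the smallest unadjusted p and every listed gene with an unadjusted p under 0.01. Replicate numbers were not used as pairs in the main fit, and no pair of libraries differed by sampling noise alone.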

Additional observations from a re-analysis of the deposited data

How the results depend on the processing

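The adjusted count of 0 genes became 1 with the replicate block, 965 under DESeq2, 5 under limma on log2(FPKM + 1) and 6 on log2(FPKM + 0.1), and stayed 0 with each library left out. The cause of the DESeq2 count was not tested. At an unadjusted p under 0.05, leaving out 1 library gave 1384 (without CAC replicate 2) to 3032 (without CONT replicate 1) genes against 2294, and 1491 without CAC replicate 3. Non-overlapping genes rose from 3883 to between 5079 and 7337, since fewer libraries overlap less often. Among pathway genes the count of 16 ran from 7 to 20, and among inducers the count of 20 ran from 18 to 25. Non-overlapping members ran from 4 to 7 with 1 library left out and were 7 with the gene length offset. Of 150 alternative fold changes of members, 148 moved by less than the SD of log2 CPM between replicates (pooled over the groups), 2 of Ddit4l did not, and 6 changed sign (Tsc2, Mtor and Rptor). The 33 named pathway and inducer genes kept their direction in 495 alternative fits, and 21 of these passed an adjusted p of 0.05, 19 of them under DESeq2.

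The labels do not say whether the replicate numbers shared by the groups pair the mice. Deviations of same-numbered libraries correlated at 0.31, -0.15 and -0.22, and those of differently numbered ones at -0.44 to 0.47. So few libraries cannot settle the question. With the replicate block, 1 gene passed after adjustment and 1992 had an unadjusted p under 0.05, with 13 pathway and 25 inducer genes among them, the log2 fold change of Ddit4l was -3.48, and the non-overlapping counts do not use the block. Depth limits Ddit4l in CAC, where 15 to 53 reads were counted, and the 11.2 reads per CPM of CONT replicate 1.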

Other observations

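The library totals behind the deposited FPKM values were recovered from counts and lengths. They were 13817700 for CONT replicate 1, below its 15713794 counted reads, and 27551200 to 32509200 for the other libraries, each above its counted reads.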
